A study of Homo sapiens with 72 samples.

Results

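The comparison described here was how far cycloheximide, a blocker of translation elongation, changed mRNA levels in A375 cells without glutamine and in A375 cells with it, 3 h after transcription was stopped. A375 is an established human melanoma cell line. Its members were the libraries collected at 3 h in the medium experiment, 12 of the 72 libraries of the series, chosen by their labels alone. They formed 4 groups of 3 replicates. Cells had been kept for 18 h in glutamine-free medium (mQ) or in the same medium with glutamine (pQ). They then received triptolide at 25 µM alone (T), or triptolide together with cycloheximide at 100 µg/ml (TCHX). No genetic change was made to these cells, and every group, controls included, had received triptolide, which blocks transcription. Cytoplasmic RNA was sequenced from its 3′ end (QuantSeq), so each value is a count of reads for a gene. The quantity of interest was a difference of differences on the log2 scale, the TCHX minus T effect in mQ less the TCHX minus T effect in pQ, and a positive value means that cycloheximide raised the mRNA more without glutamine. The labels did not say whether replicates came from separate cultures, so the p-values measure the spread between these samples.

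Once transcription is fully blocked, an mRNA can only persist or decay. The study takes a higher level with cycloheximide than without it as its measure of decay that needs ongoing translation. Other effects of cycloheximide on RNA levels were not tested. Short-lived mRNAs of growth signalling, such as immediate early genes and the feedback inhibitors of the ERK pathway, are well known to persist when translation is arrested. Nonsense-mediated decay, which removes mRNAs with certain stop codons and many snoRNA host transcripts, also depends on translation. Loss of an amino acid activates the kinase GCN2, which lowers translation initiation while favouring synthesis of ATF4, a transcription factor of amino acid supply and stress genes.

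The 12 libraries held between 6565272 and 15009623 counts and between 15895 and 17387 genes with at least 1 count. Of the 10 melanoma markers, SOX10, MITF, DCT and S100B were present at 53.2 to 431 CPM (counts scaled to the library total) in every library, while MLANA, TYR and PRAME reached at most 1.47 CPM. The 13 markers of other cell types summed to 0.499 to 3.74 CPM per library, and KRT5, KRT14, KRT1, COL3A1 and CD3E were at 0 throughout. The melanoma markers summed to 623 to 759 CPM in mQ T, 765 to 978 in mQ TCHX, 803 to 850 in pQ T and 972 to 1055 in pQ TCHX, and the part of this in the results was not tested. In these bulk samples, fewer cells with a given mRNA and less of it per cell cannot be told apart. By the number of genes detected no library of the 12 stood apart, but 2 others of the medium experiment did: at 5 h the library labelled mQ, T, replicate 3, with 20364 genes detected, and at 0 h the library labelled pQ, TCHX, replicate 3, with 19940. Both entered the choice of scaling genes and the analyses that use those times. The comparisons at 5 h and at 0 h are given with and without them. In each group of the 12, the third replicate had the largest share of its counts in the scaling genes. In mQ T this was 3.67%, beside 2.58% and 2.60% in the other replicates.

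Where the effect of cycloheximide differed between the media, it was larger without glutamine for most genes, to an extent that depended on scaling. Of 12936 genes tested with edgeR's quasi-likelihood test, the effect of cycloheximide was larger in mQ for 103 genes, or 0.796% of those tested, and smaller for 2, or 0.0155%, at an adjusted p under 0.05. SNAI1, CHAC1, EFNA1, SPRY2, SMG8, IER2, DDIT4 and MCL1 were among the 103. All 105 genes moved in the same direction in every replicate number, which their selection favours, as did 34.8% of all genes tested. The number of calls rested on a term for the replicate number. Without that term 5 genes passed, EFNA1, SMG8, INTS5, NXT1 and SIAH2, and without replicate 1, 2 or 3 the count was 2, 8 or 121. With all 36 libraries of the medium experiment in a common fit, or with the 0 h difference subtracted, 0 genes passed in edgeR, against 300 and 860 at an unadjusted p under 0.05 and 149 calls by DESeq2 on the 12 libraries. The common fit holds both libraries that stand apart, and the subtraction holds the 0 h library. Without the 5 h library, but with the 0 h library kept, the common fit again gave 0 calls (770 at an unadjusted p under 0.05). Without the 0 h library the subtraction gave 4, CHAC1, IER2 and ZNF800 among them.

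Leaving out single libraries gave between 28 genes, without the third replicate of mQ TCHX, and 275 genes, without the third replicate of pQ T. Each of the 12 single omissions moved the count by more than 1.5 times, 10 of them down, to between 28 and 68, and 2 up, to 181 without the third replicate of mQ T and to that 275. SMG8 was called in 25 of the 29 alternatives, more often than any other gene of the 105.

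Within each medium the effect was mostly a rise. Cycloheximide raised 2709 genes in mQ (20.9% of those tested) and lowered 64 (0.495%), and it raised 1281 in pQ (9.9%) and lowered 209 (1.62%). The size of this asymmetry depended on scaling. With TMM scaling, which sets the bulk of genes to no change, the split was 1723 higher and 1466 lower in mQ and 1189 higher and 599 lower in pQ. The difference of effects was then called larger in mQ for 46 genes and smaller for 6, and with DESeq2 size factors for 53 and 5. The median difference of effects over all genes was 0.13 with the study's stable genes and -0.02 with TMM, a shift of 0.148 that applies to each 3 h difference of effects given below. The shift was 0.203 for the effect in mQ, 0.0561 for that in pQ and -0.169 for the difference at 5 h. Over the 3 replicate numbers the median was 0.13, 0.22 and 0.05 (mean 0.13 ± 0.08 SD, n = 3).

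**Figure D1:**
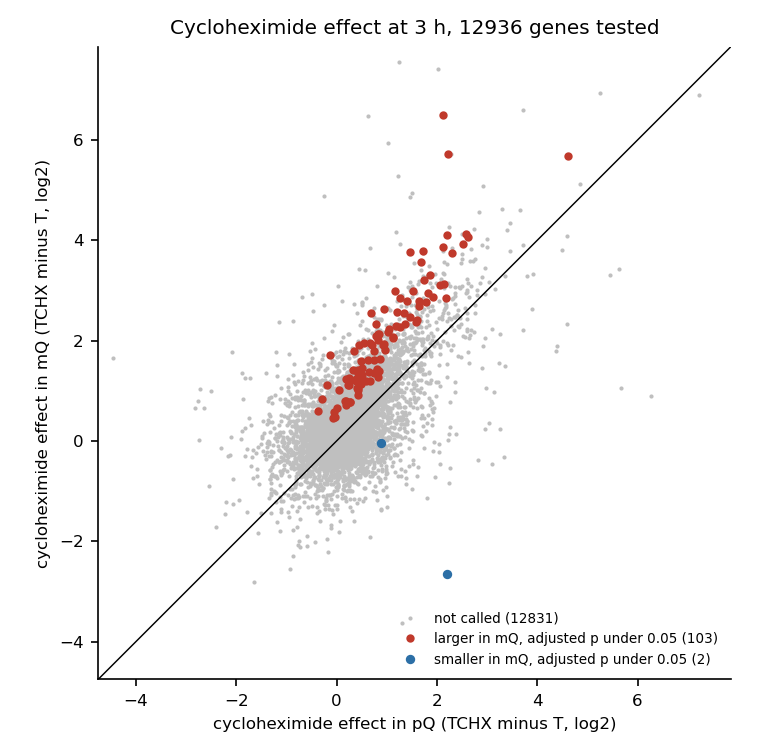
Cycloheximide effect (TCHX minus T, log2) at 3 h in pQ on the horizontal axis and in mQ on the vertical axis for the 12936 genes tested; the line marks equal effects. The 103 genes called larger in mQ lie above the line, and most of them have positive effects on both axes.

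The genes of the amino acid stress response gave some of the widest differences, although only 3 of 26 tested passed, beside 0.796% of all genes. CHAC1 encodes a glutathione-degrading enzyme that is a target of ATF4. Its normalised read counts in mQ were 5.63, 23.5 and 21.1 with triptolide alone and 747, 717 and 1059.8 with cycloheximide. In pQ the corresponding counts were 2.85, 6.61 and 2.43 with triptolide alone and 12.5, 21.4 and 19.3 with cycloheximide. The arms did not overlap in either medium, and the mQ TCHX libraries were far above all others at 3 h. CHAC1 was already higher in mQ at 0 h, by 6.03 in T on the log2 scale (adjusted p = 4.14e-06). At 3 h its mQ minus pQ difference was 2.07 in T and 5.57 in TCHX. The effect was 5.71 in mQ and 2.22 in pQ on the log2 scale, a difference of 3.49 ± 0.70 (SE, adjusted p = 0.0113, 3 replicates per group).

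DDIT4, an inhibitor of mTORC1, had counts of 76.0, 79.6 and 64.1 in mQ T against 1074, 1219 and 1045 in mQ TCHX. In pQ it had 13.3, 16.5 and 15.4 in T and 79.9, 105.7 and 78.1 in TCHX. Cycloheximide raised it in both media, without overlap between the arms, and the difference of effects was 1.40 ± 0.27 (SE, adjusted p = 0.00866). Its mQ minus pQ difference was 2.76 in T at 0 h, and 2.27 in T and 3.67 in TCHX at 3 h. CEBPB, a leucine zipper transcription factor, had 137, 168 and 209.7 counts in mQ T and 134, 114 and 75.3 in pQ T, with the lowest mQ library just above the highest of pQ. With cycloheximide it reached 1171, 1404 and 1449 in mQ and 365, 404 and 368 in pQ. The media were farther apart in TCHX than in T, and the difference of effects was 1.14 ± 0.22 (adjusted p = 0.0109). CEBPB was higher in mQ by 0.92 in T at 0 h, and by 0.68 in T and 1.82 in TCHX at 3 h.

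Over the whole list the difference had a median of 0.22, beside 0.13 for all genes, and 19 of 26 members were above 0, as were 70.2% of all genes. HERPUD1 acts in the removal of misfolded proteins from the endoplasmic reticulum. It was the sole called member of 23 tested genes of the unfolded protein response, beside 0.796% of all genes. Its difference was 0.84 ± 0.16 (adjusted p = 0.00866). It rose from 566, 498 and 411 to 1125, 1213 and 1140.0 counts in mQ. In pQ it went from 348, 368 and 246 to 413, 475 and 380.3, a smaller step of 0.41 on the log2 scale. XBP1, the transcription factor of the same response, had a difference of 0.59 that did not pass (adjusted p = 0.107).

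**Figure D2:**
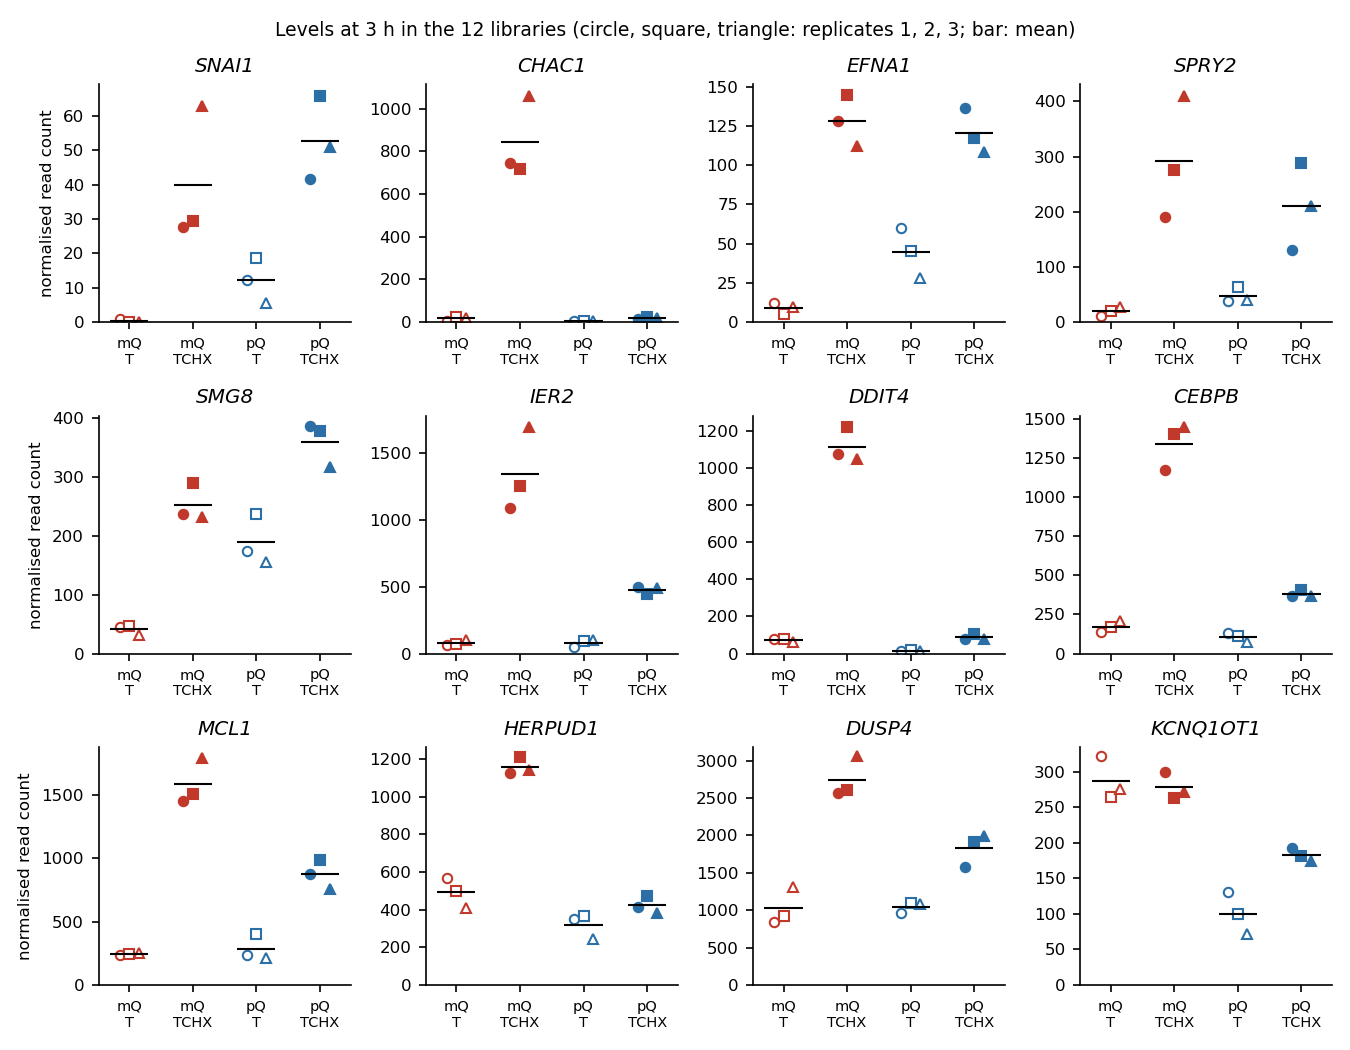
Normalised read counts (vertical axes, from 0, a separate scale for each gene) of 12 genes in the 12 libraries at 3 h; open symbols are T, filled symbols TCHX, red mQ and blue pQ, and bars are means of 3 replicates. CHAC1, DDIT4, CEBPB and IER2 reach their highest counts in mQ TCHX, whereas SNAI1, EFNA1 and SMG8 have their lowest counts in mQ T and KCNQ1OT1 changes with cycloheximide in pQ.

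Immediate early genes formed the list with the largest median difference among those with more than 1 member tested. It was 0.72 for 31 genes tested, 25 of them above 0, against 0.13 and 70.2% for all genes, and with TMM scaling it was 0.56 with the same number above 0. IER2, MCL1, CCN2, ZFP36L2 and BTG1 passed, 5 of 31 beside 0.796% of all genes, and none was smaller in mQ. Cycloheximide raised 30 of the 31 in mQ and 25 in pQ, beside 20.9% and 9.9% of all genes. Under TMM 3 of the list passed.

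IER2, a nuclear protein induced early by growth factors, had 60.0, 67.8 and 100.04 counts in mQ T and 50.4, 96.9 and 98.0 in pQ T. With cycloheximide it had 1088, 1251 and 1692 in mQ and 494, 443 and 487 in pQ. The T arms of the media overlapped at 3 h while the TCHX arms did not. IER2 was already higher in mQ at 0 h, by 1.35 in T on the log2 scale (adjusted p = 3.77e-05). At 3 h its mQ minus pQ difference was -0.09 in T and 1.47 in TCHX. The difference of effects was 1.56 ± 0.23 (adjusted p = 0.00106).

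MCL1, an anti-apoptotic member of the BCL2 family, showed the same pattern of overlap at 3 h. Unlike that of IER2, its mQ minus pQ difference in T at 0 h, 0.09, did not pass (adjusted p = 0.839). It had 238, 245 and 250.1 counts in mQ T, 1445, 1505 and 1791 in mQ TCHX, 235, 402 and 216 in pQ T and 877, 984 and 755 in pQ TCHX. The T arms overlapped and the TCHX arms did not, and the difference was 1.05 ± 0.20 (adjusted p = 0.00866). ZFP36L2, which binds AU-rich elements and promotes mRNA decay, differed by 1.14 (adjusted p = 0.0111). CCN2, a secreted matrix protein, differed by 1.18 (adjusted p = 0.0492) and BTG1, an antiproliferative partner of the CCR4-NOT deadenylase, by 0.59 (adjusted p = 0.0365).

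Feedback genes of ERK signalling, the pathway that the mutant BRAF of this line drives, had a median difference of 0.40 over 16 genes tested. SPRY2, SPRY4, DUSP4, DUSP6 and PHLDA1 passed, 5 of 16 beside 0.796% of all genes, and 3 passed under TMM. SPRY2, an inhibitor of receptor tyrosine kinase signalling, had 11.3, 20.9 and 27.2 counts in mQ T and 191, 276 and 411 in mQ TCHX. In pQ it had 39.0, 63.8 and 39.7 in T and 129.9, 289 and 211 in TCHX. The mQ T counts lay below all pQ T counts, whereas the TCHX arms overlapped, and the difference was 1.75 ± 0.34 (adjusted p = 0.0111). DUSP4, a phosphatase of MAP kinases, showed a smaller difference of 0.63 ± 0.13 (adjusted p = 0.0113), with 2569, 2602 and 3066 counts in mQ TCHX and 1577, 1911 and 1998 in pQ TCHX. DUSP6, the cytoplasmic ERK phosphatase, rose most of the list in both media, by 5.69 in mQ and 4.61 in pQ on the log2 scale, a difference of 1.08 ± 0.22.

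SMG8 had the smallest p of all genes. It encodes a regulator of the SMG1 kinase, which starts nonsense-mediated decay. Its counts were 46.0, 47.0 and 30.7 in mQ T, 237, 290.0 and 233 in mQ TCHX, 175, 238 and 155 in pQ T and 386, 378 and 317 in pQ TCHX. The mQ libraries lay below the pQ libraries in both arms, by 2.19 in T and 0.51 in TCHX on the log2 scale. The effect of cycloheximide was 2.63 in mQ and 0.94 in pQ, and the difference of 1.68 ± 0.22 (adjusted p = 0.000596) was the only one that passed a test against a 1.5-fold change. The other nonsense-mediated decay factors did not pass, and the median over 19 was 0.11.

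The rest of the 10 widest called differences included SNAI1 and EFNA1. SNAI1, the Snail repressor of epithelial genes, had 0.938, 0 and 0 normalised counts in mQ T, from a single read in all. It had 27.5, 29.4 and 63.0 in mQ TCHX, 12.4, 18.7 and 5.67 in pQ T and 41.6, 65.8 and 50.9 in pQ TCHX. The TCHX to T ratio in mQ was 128 with a 95% counting interval of 22.8 to 5103 (exact binomial, 1 against 181 reads), so its fitted difference of 4.37 ± 1.08 (adjusted p = 0.0493) depends on how a count of 0 is treated. EFNA1, an ephrin ligand of Eph receptors, had 12.2, 5.22 and 9.65 counts in mQ T and 59.9, 45.1 and 28.3 in pQ T. In the TCHX arm it had 128, 145 and 113 in mQ and 137, 117 and 108 in pQ, so that the media overlapped with cycloheximide and not without it. Its difference was 2.30 ± 0.39 (adjusted p = 0.00408).

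RPUSD2, a pseudouridine synthase family member, MOCS3, which activates sulphur carriers for molybdenum cofactor synthesis and tRNA thiolation, and ANKRD50, a protein of endosomal recycling, differed by 2.06, 1.89 and 1.87. C15orf39 and CCDC71, whose roles are less well known, differed by 1.91 and 1.83. For these 5 genes every mQ T count was below every pQ T count, as for MOCS3 with 14.1, 5.22 and 10.5 against 50.4, 42.9 and 35.6. GDPGP1, a GDP-glucose phosphorylase, differed by 1.84 and had an effect in pQ of -0.12 that did not pass (adjusted p = 0.863), as did ANKRD50 with 0.68 (adjusted p = 0.0519). ZNF281 and ZNF316, zinc finger proteins, differed by 1.15 and 0.74. They were 2 of 4 called among 372 tested ZNF genes, near the 0.796% of all genes, in a list with a median of 0.27.

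KCNQ1OT1, an imprinted long noncoding RNA, and CBWD6 were the 2 genes called with a smaller effect in mQ. KCNQ1OT1 had 322, 265 and 276 counts in mQ T and 300.4, 263 and 271 in mQ TCHX, which overlapped. In pQ it rose from 130.3, 100.2 and 71.2 to 193, 181 and 175. The difference was -0.93 ± 0.21 (adjusted p = 0.0325). KCNQ1OT1 lies antisense to KCNQ1, and use of strand in the counting was not given in the sources used here, so reads of the pair cannot be told apart. CBWD6 belongs to a family of near-identical copies and had between 3.51 and 115 counts in the libraries of mQ T, so its value of -4.85 is uncertain.

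Below these, the genes nearest to the threshold in the same direction, named by rank of p and not past it, were CCNL1, HOXA4, GTF2IP20, MAT2A and SQSTM1. CCNL1, a cyclin with a role in splicing, had an effect of 1.69 in mQ and 2.42 in pQ and a difference of -0.73 (adjusted p = 0.0653). MAT2A, which makes S-adenosylmethionine, had effects of 0.33 and 0.97 and a difference of -0.64 (adjusted p = 0.0975). HOXA4, a homeobox gene, had -1.09, the pseudogene GTF2IP20 had -1.26 and SQSTM1, an autophagy receptor, had -1.66, a value that is uncertain since the table lists further copies of the gene name and no group had a mean above 53.3 reads.

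Of 9 mRNAs listed as targets of translation-dependent decay, 0 passed in edgeR in either direction (0 at an unadjusted p under 0.05, the smallest being 0.147, for GADD45A), a number that the share of 0.796% over all genes does not set apart. Their median was 0.15. Cycloheximide raised 6 of them in mQ and 7 in pQ, beside 20.9% and 9.9% of all genes. ATF4 had 4256, 5122 and 9999.9 counts in mQ T and 8046, 9093 and 9569 in mQ TCHX, with the third T library above all TCHX libraries. In pQ it went from 1158, 1222 and 1267 to 2329, 1769 and 2050, without overlap. The difference was -0.24 ± 0.21 (adjusted p = 0.713). GADD45A, a growth arrest gene, was raised by 2.32 in mQ and 1.84 in pQ, and its difference of 0.48 did not pass, although it ranged from 0.15 to 1.11 when replicates or libraries were left out and passed without replicate 3. Nor did that of its relative GADD45B, -0.69, pass.

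The noncoding snoRNA hosts GAS5, SNHG1, SNHG12 and SNHG15 had differences of -0.22, 0.18, 0.15 and 0.50. TBL2 and UPP1 had 0.26 and 0.04, but cycloheximide raised neither in either medium, with effects of 0.34 and 0.08 for TBL2 and -0.14 and -0.18 for UPP1 in mQ and pQ. Over 22 snoRNA host genes tested the median was -0.04, with 10 above 0. Cytosolic ribosomal protein mRNAs, which are long-lived, had a median of -0.03 over 74 tested and 0 called, and cytoplasmic aminoacyl-tRNA synthetases a median of 0.05 over 18 and 0 called, with FARSA nearest (0.39, adjusted p = 0.072). Enzymes and transporters of glutamine and glutamate had a median of 0.09 over 25 with 0 called, led by SLC38A2, a glutamine carrier, at 0.33 (adjusted p = 0.441).

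Genes of DNA replication and repair had a median of 0.16 over 45 tested and 0 called, with MSH6, a mismatch repair factor, at 0.30 (adjusted p = 0.228). Mitosis genes had 0.19 over 32 and 0 called, and p53 targets 0.23 over 20 and 0 called, with BBC3, an activator of apoptosis, at 1.19 (adjusted p = 0.0795). All 20 of the p53 targets were above 0 with the stable genes and 14 with TMM. Cholesterol synthesis genes had 0.10 over 20, and the list of SR splicing factors, CLK kinases and cyclin L had 0.14 over 21, with 0 called in each. Of the 7 melanoma markers tested only SOX10 passed, with 0.45 (adjusted p = 0.048), beside 0.796% of all genes, and the list median was 0.05. The lists with 0 calls also had 0 members called larger under TMM.

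**Figure D3:**
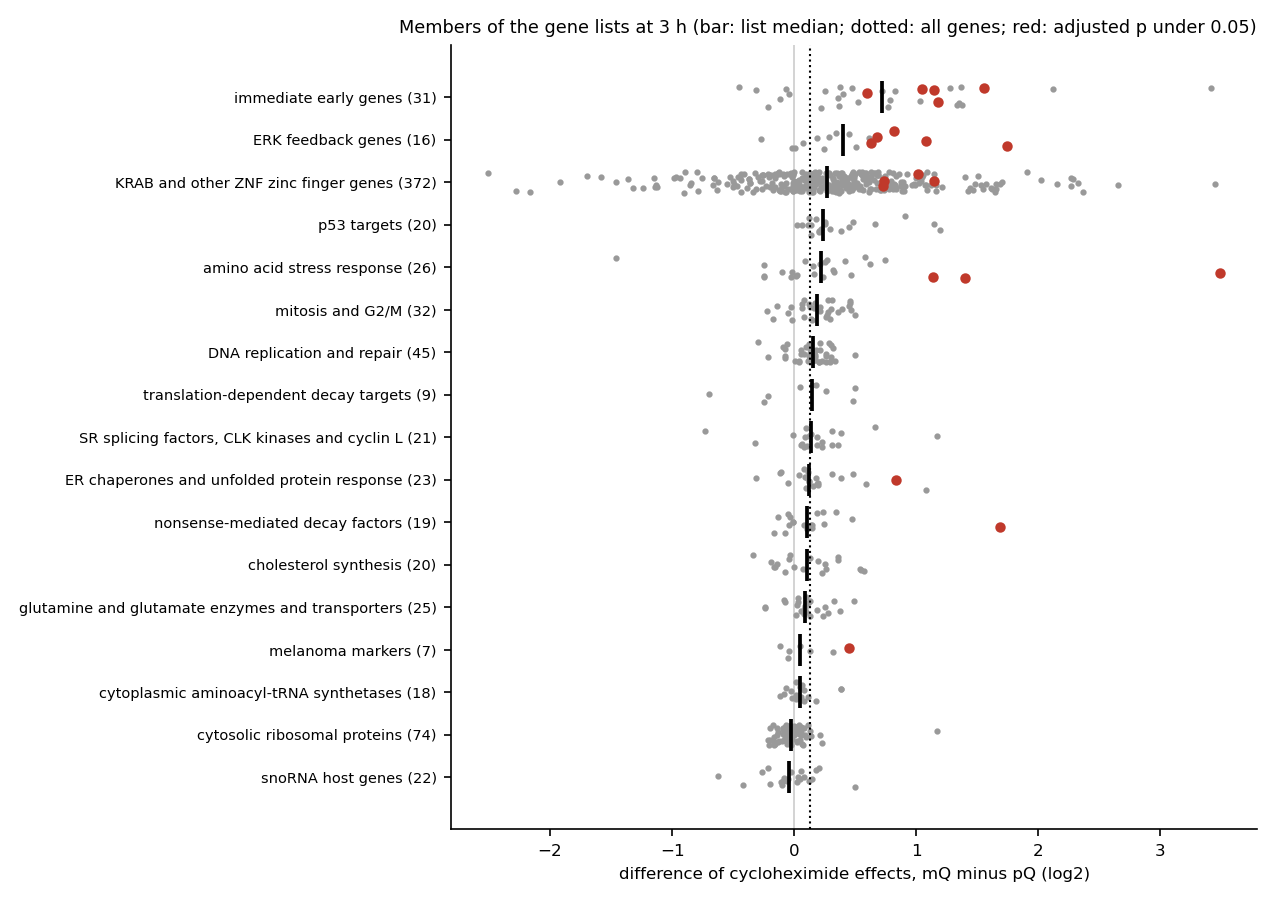
Difference of cycloheximide effects (mQ minus pQ, log2, horizontal axis) for the tested members of each gene list, with the number tested in brackets; grey points did not pass, red points had an adjusted p under 0.05, bars are list medians and the dotted line is the median of all genes, 0.13. The medians of the immediate early and ERK feedback genes lie farthest right, and most ribosomal protein mRNAs lie near 0.

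Split by arm, the 103 genes differed between media mainly with triptolide alone. Their median mQ minus pQ difference was -0.87 in T, with 78 of 103 called lower in mQ, whereas 23.4% of all genes were called lower. With cycloheximide the median was 0.08, 33 were called higher in mQ and 17 lower, beside 11.4% and 12.4% of all genes. The 2 arms enter the difference that chose these genes, so these values describe them and are no test. Per library, the median count over the 103 genes was 111, 137 and 121 in mQ T and 202, 227 and 205 in pQ T, without overlap. In TCHX it was 396, 476 and 433 in mQ and 399.6, 417 and 391 in pQ, and the media overlapped. CHAC1, DDIT4, CEBPB, HERPUD1, CCN2, BTG1 and KLF9 were the 7 genes of the 103 called the other way in T, higher in mQ, beside 8.16% of all genes. At 0 h, in libraries the comparison did not use, the median mQ minus pQ difference in T was -0.12, beside -0.10 for all genes. Of the 103 genes, 19 were called higher in mQ there and 20 lower, beside 7.28% and 11.2% of all genes.

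The same genes decayed fast and responded to cycloheximide in a separate experiment of the series. All 103 had been called raised by cycloheximide in mQ at 3 h, beside 20.9% of all genes. Other genes raised there were not compared, so these traits are not shown to be particular to the 103. In libraries of A375 transfected with a control siRNA (siGL2), triptolide for 3 h lowered the 103 genes by a median log2 change of -1.69 against 0 h, beside -0.47 for all genes, and 87 of 103 fell by at least 1 on the log2 scale compared with 17.6% of all genes. Cycloheximide in those cells raised 87 of 103, where it raised 12.4% of all genes tested there, and 102 of 103 had a positive effect, with a median of 0.91 against 0.04.

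At 5 h the result turned on a single library. In the third replicate of mQ T at 5 h the median count over the 103 genes was 374.7, whereas it was 53.5 and 69.3 in its sister libraries and 278 to 325 in mQ TCHX at 5 h. With this library, 0 genes passed in edgeR at 5 h (476 at an unadjusted p under 0.05), and the 103 genes had a median of -0.51 with 27 above 0, beside 33.4% of all genes. Without it, an analysis chosen after seeing the data, 134 genes passed as larger in mQ, 1.01% of those tested, and 8 as smaller, 0.0604%. Of the 103 genes, 97 were then above 0 with a median of 0.75, beside 59.0% and 0.08 for all genes, and 23 were called, among them SMG8 (1.95, adjusted p = 0.00818), DUSP4 (1.07, adjusted p = 0.00757) and BTG1. CHAC1 and DDIT4 had 0.55 and 0.41 and did not pass.

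At 0 h, 0 genes passed in edgeR (945 at an unadjusted p under 0.05), and the median difference was 0.12 over all genes and 0.20 over the 103, with 63.2% and 75 of 103 above 0. The library labelled pQ, TCHX, replicate 3 weighed on these values, its median count over the 103 genes being 539 beside 768 and 824 in its sister libraries. Without it, chosen after seeing the data, the medians were 0.05 and 0.06, 56.2% and 59 of 103 were above 0, and 1 entry of the table passed, listed as TRNA, a name that gives no single gene. By replicate number the 103 genes had a median difference of 0.11, 0.17 and 0.35 at 0 h, 1.04, 0.98 and 0.85 at 3 h, and 0.88, 0.61 and -2.07 at 5 h. The genes were chosen for a large difference in the 3 h libraries, which fixes that these stand above 0 h.

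**Figure D4:**
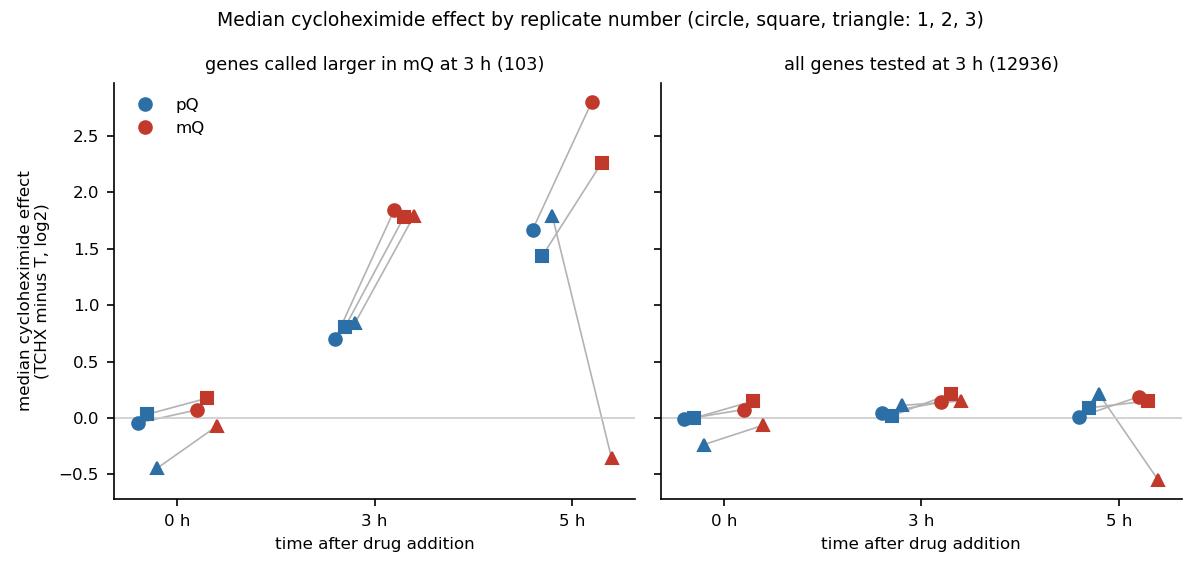
Median cycloheximide effect (TCHX minus T, log2) at 0, 3 and 5 h in pQ (blue) and mQ (red), each symbol a replicate number and each line joining the media of that number, for the 103 genes called larger in mQ (left) and all 12936 genes (right). At 3 h the 3 mQ values of the left panel lie between 1.78 and 1.84 and the pQ values between 0.70 and 0.84, and at 5 h the third mQ replicate falls to -0.36.

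The called genes had few exons. In GENCODE v44 (GRCh38), 102 of the 103 were protein-coding genes with a canonical transcript, and these had a median of 3 exons against 9 for the 11140 protein-coding genes tested. At most 2 exons were found in 41 of 102, or 40.2%, and in 6.38% of all. IER2 (chr19:13150411-13154911, plus strand) has 2 exons, CHAC1 (chr15:40953471-40956512, plus strand), DDIT4 (chr10:72273924-72276036, plus strand) and MCL1 (chr1:150574558-150579610, minus strand) have 3, and CEBPB (chr20:50190830-50192668, plus strand) and MOCS3 (chr20:50958818-50963929, plus strand) have 1. SMG8 (chr17:59210035-59215230, plus strand) has 4 and HERPUD1, with 8, was nearer to the usual number. Over all protein-coding genes tested, called or not, the median difference was 0.45 for single-exon genes and 0.11 for genes of more than 10 exons. Decay moved with exon number too: in siGL2 cells the median log2 change over 3 h of triptolide was -1.05 for single-exon genes and -0.44 for those of more than 10 exons, and the part of decay rate in the exon pattern was not tested.

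**Figure D5:**
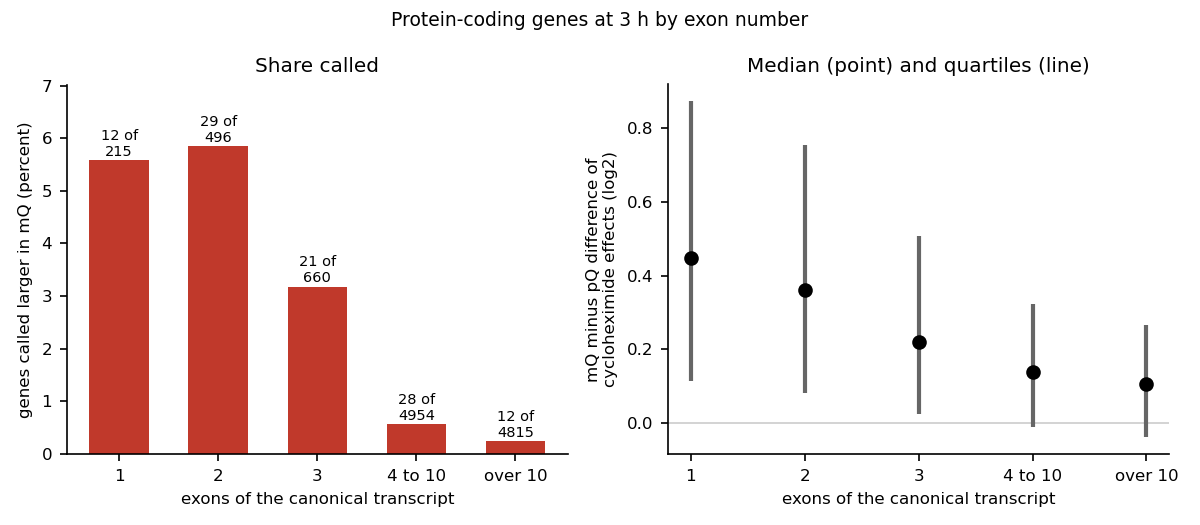
Protein-coding genes by exon number of the canonical transcript; left, percent called larger in mQ at 3 h with counts above the bars; right, median (point) and quartiles (line) of the mQ minus pQ difference of cycloheximide effects (log2). The share called was 5.58% for 1 exon and 0.249% for more than 10, and the median fell from 0.45 to 0.11.

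Other transcript features were also compared. Median coding length was 1287 bases for called and 1421 for all genes, and the 3′ untranslated region was 1446 and 1408 bases. The pentamer ATTTA, the core of AU-rich elements, was present in the 3′ untranslated region of 82 of 102 genes (80.4%) and of 75.1% of all, with a median of 4 and 2 copies, and the nonamer TTATTTATT in 15.7% and 10.1%, both searched on the sense strand, each nonamer holding a pentamer. Codons ending in G or C made up a median of 66.6% of the coding sequence of called genes and 57.7% of all. The codons AAA, GAA and CAA together made up 4.74% and 6.55%. Among glutamate codons GAG made up 66.7% and 56.4%. Glutamine codons took 4.68% and 4.47% of the coding sequence.

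The TDD index, the study's measure, is the TCHX minus T difference of normalised counts divided by the 0 h count. Here the 0 h count was the mean of the T and TCHX libraries at 0 h. The index was taken at 3 h alone, whereas the study modelled it over 3 h and 5 h. Its median over 12428 genes was 0.0666, 0.0964 and 0.0609 in mQ and 0.0212, 0.00861 and 0.0475 in pQ, with all mQ values above all pQ values. The difference of means, 0.0489, had p = 0.1 in a two-sided exact permutation test, the smallest p that 3 against 3 samples can give. A linear model per gene with a replicate term gave 837 genes with a higher and 118 with a lower index in mQ at an unadjusted p of at most 0.05, where that threshold alone would pass 621 of 12428, and 1 after adjustment, BOC, a receptor of hedgehog signalling, with an index of 0.0549 in mQ and 0.269 in pQ. With TMM the difference was 0.00443 with 490 genes higher and 340 lower, and with the T and TCHX arms each taken over their matching 0 h counts it was -0.0123 with 366 higher and 494 lower, a setting that rests in part on the 0 h library that stands apart. The 103 genes had a median index of 0.383 in mQ and 0.218 in pQ, beside 0.0698 and 0.0243 for all genes. All 103 had a higher mean index in mQ, but the size of this varied. SPRY2 had 0.204 ± 0.059 (SD) in mQ and 0.201 ± 0.081 in pQ, nearly the same. The index uses the 3 h counts that chose these genes, so these values describe them and are no test.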

How the data were processed

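Cytoplasmic RNA of A375 cells had been sequenced as QuantSeq 3′ libraries. The deposited table holds whole-number counts, not normalised, for which the authors trimmed reads with fastp 0.20.1, mapped them to GRCh38.p13 with HISAT2 2.2.1 and counted exons with HTSeq 0.13.5, per the submitters' processing notes and the study's methods. No molecular identifiers were stated, so intervals cover counting error only. Of the file's columns 0 were left unmatched. Groups came from sample titles.

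Counts were scaled by median ratios over 82 genes (81 with counts in every library) chosen after the study's stability rule (CPM above 0.2 at 0 h, at 3 or 5 h a CPM at least 1.1 times that at 0 h, which in turn was above 0.1 of it, in both arms, both media and all replicates). The interaction was fitted to the 12 libraries with edgeR 4.0.16 in R 4.3.3 (filterByExpr, quasi-likelihood F-test, replicate term as in the study's TDD model). Adjusted p is the Benjamini-Hochberg value over all genes tested, with a threshold of 0.05. Normalised counts carry a pseudocount of 0.5 where logs were taken per replicate. Alternatives used TMM, DESeq2 1.42.0 and others. The fit was tested on simulated data. Named genes were the up to 10 widest calls in each direction with a group mean of at least 50 counts and the same sign in all 3 numbers, filled to 6 by p, the 9 decay targets, and the 2 members of each list with the smallest p. Other names were chosen after their values were seen. Some genes that this rule names are not reported here. The comparison and the lists were chosen with earlier results of these data known. The list of mitochondrially encoded mRNAs had 0 genes in the table. Transcript features came from GENCODE v44 (12033 of 12936 genes matched by symbol).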

Additional observations from a re-analysis of the deposited data

Results flagged for a closer look

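The cycloheximide effect differed between media for 105 genes by the interaction test. Among those named, the difference (mQ minus pQ, log2) was 4.37 for SNAI1, 3.49 for CHAC1, 2.30 for EFNA1, 2.06 for RPUSD2, 1.91 for C15orf39, 1.89 for MOCS3, 1.87 for ANKRD50, 1.84 for GDPGP1, 1.83 for CCDC71 and 1.75 for SPRY2. For genes named from the lists it was 1.68 for SMG8, 1.56 for IER2, 1.40 for DDIT4, 1.15 for ZNF281, 1.14 for CEBPB, 1.05 for MCL1, 0.84 for HERPUD1, 0.74 for ZNF316 and 0.63 for DUSP4. KCNQ1OT1 differed the other way, by -0.93. Each of these differences was tested in the same fit across all genes.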

How the results depend on the processing

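The replicate block decided the count at 3 h, 105 genes with it and 5 without it, and 834 instead of 1490 genes then responded to cycloheximide in pQ. Deviations of same-numbered libraries from their group means correlated at 0.0648 to 0.378, above 0.1 for 14 of 18 pairs, and each of the 12 libraries correlated best with its own number. This is a hint from the data, since the labels do not say what a number shares. Other settings gave 52 calls with TMM, 58 with DESeq2 size factors, 438 with stable genes required at both 3 h and 5 h, 206 without a filter, 0 with all 36 libraries, 0 with the 0 h difference subtracted and 1 against a 1.5-fold change. The cycloheximide counts in mQ and pQ were 756 and 117 with all 36 libraries, 1180 and 646 with 0 h subtracted, and 856 and 324 against a 1.5-fold change. The median difference over all genes was -0.01899 with TMM, 0.005607 with DESeq2 size factors, 0.2883 with stable genes at both times and 0.01368 with 0 h subtracted. TMM without the block, an alternative chosen after seeing the data, gave 2 calls, 893 in pQ and a median of -0.0189, and TMM without replicate 3, chosen likewise, gave 33, 980 and -0.01418. Chosen likewise, the common fit without the third mQ T library of 5 h gave 0 calls, 1709 cycloheximide calls in mQ and 675 in pQ, and the subtraction without the third pQ TCHX library of 0 h gave 4, 1328 and 447. The TDD index difference was 0.004431 with TMM and -0.01225 over matching 0 h counts, and 630 genes instead of 955 passed with stable genes at 3 h alone. At 5 h the count was 0 with all libraries, 247 without replicate 3 and 142 without the third mQ T library.

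Leaving out replicates or single libraries gave 2 to 275 calls, 1790 to 2956 cycloheximide calls in mQ and 799 to 1573 in pQ, and at 5 h 0 to 247. Among single genes, none of them called, such omissions gave -0.5094 to 0.1412 for ATF4, -0.3389 to 0.001137 for GAS5, -0.09793 to 0.43 for SNHG1, -0.1686 to 0.4542 for SNHG12 and -0.004849 to 0.1234 for UPP1. UPP1 was -0.1049 with TMM, -0.0802 with DESeq2 size factors, -0.1055 with TMM without the block and -0.09008 with TMM without replicate 3. With 0 h subtracted ATF4 was 0.2656, SNHG12 -0.2355, SNHG15 -0.2496, TBL2 -0.08291 and UPP1 -0.006712, and without that 0 h library SNHG12 was -0.03424, SNHG15 -0.173 and TBL2 -0.04424. Of the 105 called genes only CDCA4 turned, with 0 h subtracted. The cause of these shifts was not tested. Of the other values of named genes, 646 kept direction and side of the threshold, 264 lost the call and 20 gained it. Depth limits SNAI1, with 1 read in mQ T.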
